A study of Drosophila melanogaster with 6 samples.

Results

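The steroid hormone ecdysone times moulting and metamorphosis in Drosophila, and the genes followed here encode the nuclear receptors and transcription factors that carry its signal. They were chosen by symbol from a list of 10 genes, with older symbols brought to the current one. Of these, 8 had a probe set annotated to 1 gene symbol, out of 10843 genes measured in that way, and together they had 12 probe sets. There were 3 probe sets for br, 2 each for EcR and Hr3, and 1 each for usp, Eip78C, Eip93F, Hr39 and ftz-f1. The early genes Eip74EF and Eip75B were not analysed here.

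Larvae of Drosophila melanogaster were profiled on 6 single-colour Affymetrix arrays, all at the third larval instar. The control group held 3 arrays of wild type larvae of the strain that the labels write as cancon S. The other group held 3 arrays of mle/mle larvae, homozygous mutants of the gene maleless, described as male and separated from heterozygotes written mle/ T(2-3)Tb. The labels do not state the allele, the sex of the wild type larvae or the strain background of the mutants. Nor do they give the number of larvae behind each RNA sample. Strain and genotype therefore cannot be told apart, and neither can sex and genotype if the wild type larvae were not all male. The product of mle is a helicase of the MSL complex, which boosts transcription from the X chromosome of males, and the comparison asks how expression differs when mle is mutated. The arrays are called biological replicates, and p-values measure the spread between these 6 RNA samples.

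Ecdysone binds a heterodimer of the nuclear receptors EcR and usp. The bound receptor switches on a small set of early genes, among them br, and a set of early-late genes such as Hr3, Hr39 and Eip78C, whose products then activate or repress late genes. In the prepupa Hr3 activates ftz-f1, which makes tissues competent to answer the next hormone pulse, and Eip93F directs the later death and remodelling of larval tissues. In the third instar this cascade sets the end of glue synthesis in the salivary gland and the start of puparium formation, so transcript levels of these genes are known to change within hours.

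Each array gave a log2 signal for 13966 tested probe sets, and any pair of arrays correlated between 0.987 and 0.997. Genes of the last larval stage were bright on every array. The storage protein gene Lsp2 of the fat body read 13.81 to 13.97, and the salivary glue gene Sgs3 read 12.96 to 13.40. The probe set of mle itself read 5.38, 5.56 and 5.40 on the wild type arrays and 5.32, 5.43 and 5.28 on the mutant arrays, differing by -0.10 (adjusted p = 0.9997 by limma). It lay under the lower quartile of signals on all 6 arrays and does not check the genotype. The arrays differed in how often they held an extreme value. Wild type replicate 2 held the lowest value of 23.4% and the highest of 24.2% of all probe sets, and mle/mle replicate 2 held the highest of 23.5% and the lowest of 12.9%. For wild type replicate 3 these shares were 20.3% and 17.4%, and for mle/mle replicate 1 they were 10.2% and 12.2%. For several of the cascade genes the group difference is given with and without an extreme array. Spreads, ranges and correlations are given over all 6 arrays only. The RNA came from larvae with all their tissues, and fewer cells of a type cannot be told apart from less RNA per cell.

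No measured gene of the ecdysone cascade passed the test between the genotypes. By limma, 0 of the 12 probe sets passed an adjusted p of 0.05, where 0.0573% of all probe sets did, and 0 of 12 had an unadjusted p under 0.05, against 4.32% of all. The wild type and mle/mle values overlapped in all 12 probe sets, whereas 8.36% of all probe sets had groups without overlap. The fitted difference was above 0 in 11 of 12, with a median of 0.06 on the log2 scale. Over all tested probe sets 53.7% were above 0 and the median was 0.0066. That median over the 12 probe sets was -0.0084 without mle/mle replicate 2 and -0.018 without replicate 2 of both groups, where 4 of 12 were above 0. Exact two-sided permutation tests over the 6 arrays gave p from 0.2 to 1.0, where 3 arrays against 3 cannot go below 0.1.

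**Figure D1:**
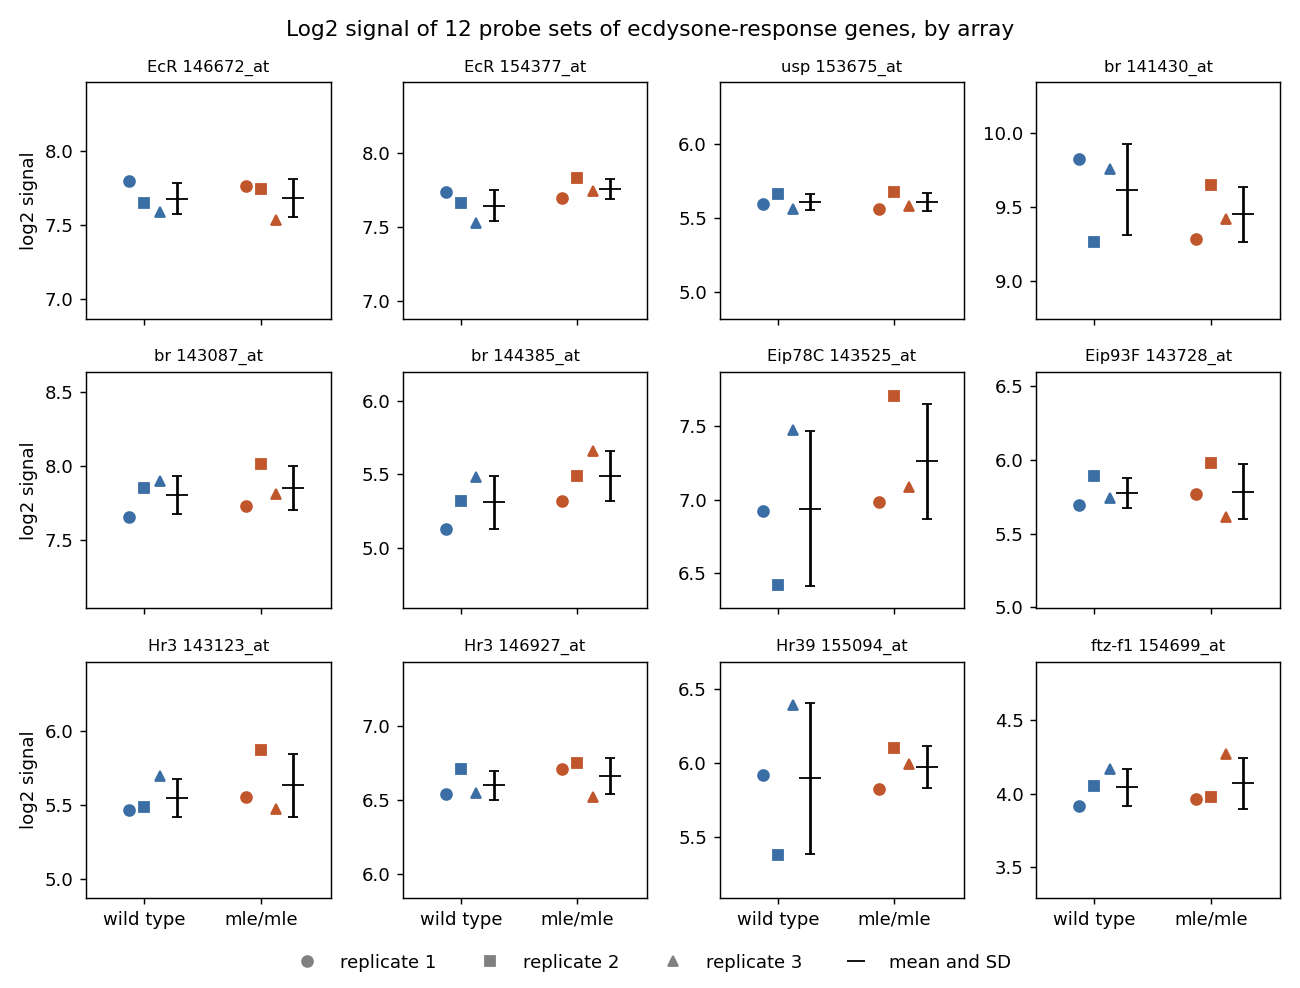
Log2 signal (vertical axis) of each of the 12 probe sets on the 3 wild type and 3 mle/mle arrays, with 1 symbol for each replicate number and the mean with its SD to the right of each group. All panels span the same log2 range. The groups overlap in every panel, and the values spread most for Eip78C and Hr39.

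EcR and usp encode the receptor pair. The 2 EcR probe sets had ranges wider than those of 39.6% and 52.1% of all probe sets, while usp ranged little. The EcR probe set 146672_at read 7.79, 7.65 and 7.59 on the wild type arrays and 7.76, 7.74 and 7.54 on the mutant arrays, with means of 7.68 ± 0.11 and 7.68 ± 0.13 (SD, n = 3 each). Each mutant array lay within 0.10 of the wild type array of the same number. The fitted difference was 0.0046 with a 95% interval from -0.21 to 0.22, which corresponds to 0.865 to 1.16 times the wild type signal. The second EcR probe set, 154377_at, read 7.74, 7.66 and 7.53 on the wild type arrays and 7.70, 7.83 and 7.75 on the mutant arrays. Here mle/mle replicate 2 was the highest array and wild type replicate 3 the lowest, and the difference was 0.11 (95% interval -0.07 to 0.30, adjusted p = 0.9997 by limma). It was 0.079 without that mutant array and 0.058 without that wild type array. In the PLIER table, the second deposited summary of the same arrays, the first probe set differed by -0.12 and the second by 0.07, so the sign of the first depended on the summary.

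The gene usp encodes the partner of EcR and is an X-linked gene, as is br. Its probe set read 5.59, 5.66 and 5.56 on the wild type arrays and 5.56, 5.68 and 5.58 on the mutant arrays. The 6 arrays lay within 0.12 of each other, a range narrower than that of all but 4.03% of probe sets. The fitted difference was 0.00058 (95% interval -0.17 to 0.17), or between 0.891 and 1.12 times the wild type signal. This probe set lay under the lower quartile of signals on all 6 arrays, and RMA can compress changes of dim probe sets, which was not tested here. In the PLIER table the same probe set had a mean signal above that of 85.4% of probe sets, against 21.2% in the RMA table, and there too its arrays lay within 0.16 of each other.

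The early gene br encodes a family of zinc finger transcription factors needed for the larva to enter metamorphosis, and its 3 probe sets did not behave alike. The brightest, 141430_at, read 9.83, 9.26 and 9.76 on the wild type arrays and 9.28, 9.65 and 9.42 on the mutant arrays. Wild type replicate 2 was the lowest of the 6 arrays and the other wild type arrays were the highest, while mle/mle replicate 2 was the highest mutant array. The means were 9.62 ± 0.31 and 9.45 ± 0.18 (SD, n = 3 each), a difference of -0.17 (SE 0.16, adjusted p = 0.9997 by limma). The mutant array was lower by -0.54 in the pair numbered 1 and -0.34 in the pair numbered 3, and higher by 0.39 in the pair numbered 2. Without replicate 2 of both groups the difference was -0.44 and passed the test (SE 0.08, adjusted p = 0.025 by limma), where 3.24% of all probe sets passed. With array weights, whose estimation stopped before it converged, it was -0.46 (adjusted p = 0.010 by limma), and 11.2% of all probe sets passed. Leaving out wild type replicate 2 alone gave -0.34 (adjusted p = 0.68 by limma), and leaving out mle/mle replicate 2 alone gave -0.26 (adjusted p = 0.90). Within the array codes that the column names of the PLIER table carry, it differed by 0.0040 over 4 arrays and by -0.36 between the other 2.

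The second br probe set, 143087_at, read 7.66, 7.85 and 7.90 on the wild type arrays and 7.73, 8.02 and 7.81 on the mutant arrays, a difference of 0.05 (95% interval -0.19 to 0.29). The third, 144385_at, read 5.13, 5.32 and 5.48 on the wild type arrays and 5.32, 5.49 and 5.66 on the mutant arrays. It was the only one of the 12 that was higher in the mutant array of all 3 same-numbered pairs, by 0.19, 0.17 and 0.18. Its difference of 0.18 had an unadjusted p of 0.17 by limma, and with the replicate number as a block the unadjusted p was 0.027 and the adjusted p 0.58, where 7.18% of all probe sets had an unadjusted p under 0.05 and 0.043% passed adjustment. It was dim, below the lower quartile of signals on all 6 arrays. Averaged over its 3 probe sets, br differed by 0.021 (adjusted p = 0.9995 by limma). The files do not say which br transcripts each probe set reads.

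**Figure D2:**
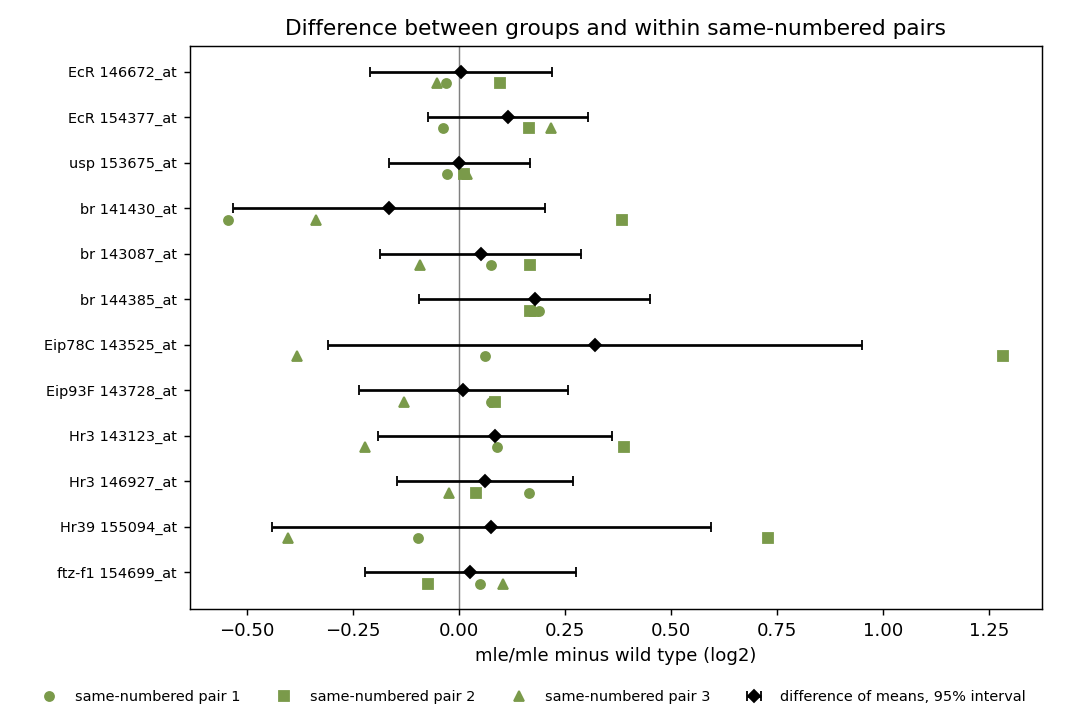
Difference in log2 signal between mle/mle and wild type (horizontal axis) for each probe set, with its 95% interval from limma (diamonds) and the difference within each same-numbered pair of arrays (green symbols). All 12 intervals include 0, and the pair numbered 2 lies far to the right for Eip78C (1.28) and Hr39 (0.73).

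The early-late gene Eip78C, a nuclear receptor gene related to vertebrate Rev-erb, varied more between arrays than any other probe set of the group. Its log2 signal was 6.92, 6.42 and 7.47 on the wild type arrays and 6.98, 7.70 and 7.09 on the mutant arrays. The lowest and the highest of the 6 values both came from replicate 2, from the wild type and the mutant array, and they differed 2.43-fold. The means were 6.94 ± 0.52 and 7.26 ± 0.39 (SD, n = 3 each). This difference of 0.32 (SE 0.27, 95% interval -0.31 to 0.95) was smaller than the SD within either group. It had the opposite sign without replicate 2 of both groups, at -0.16 (adjusted p = 0.77 by limma). It was 0.06 when only wild type replicate 2 was left out and 0.10 when only the mutant array of that number was, and 0.59 without wild type replicate 3. In the PLIER table the 6 values ran from 5.30 to 6.93 and the difference was 0.39. Within the array codes of that table it was 0.80 over 4 arrays and -0.43 between the other 2.

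Hr39, a nuclear receptor gene of the same family as ftz-f1, had the next widest spread. It read 5.92, 5.38 and 6.40 on the wild type arrays and 5.82, 6.11 and 5.99 on the mutant arrays. The 3 mutant values lay inside the span of the wild type values, which ran from replicate 2 at the bottom to replicate 3 at the top. The means were 5.90 ± 0.51 and 5.97 ± 0.14 (SD, n = 3 each), with a difference of 0.08 (95% interval -0.44 to 0.59). It was 0.33 without wild type replicate 3, and turned to -0.18 without wild type replicate 2 and to -0.25 without replicate 2 of both groups (adjusted p = 0.89 and 0.54 by limma). In the PLIER table it was -0.0044, with 0.15 over the 4 arrays of 1 code and -0.30 between the other 2.

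Hr3 encodes the nuclear receptor that links the early genes to ftz-f1. Its probe set 143123_at read 5.47, 5.49 and 5.70 on the wild type arrays and 5.55, 5.88 and 5.47 on the mutant arrays. The probe set 146927_at read 6.54, 6.71 and 6.55 on the wild type arrays and 6.71, 6.75 and 6.52 on the mutant arrays. In both, mle/mle replicate 2 was the highest array. They differed by 0.09 (95% interval -0.19 to 0.36) and 0.06 (95% interval -0.15 to 0.27). Without mle/mle replicate 2 the first turned to -0.04 and the second fell to 0.015.

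The genes that act after the larval pulse were dim. The probe set of ftz-f1 read 3.92, 4.05 and 4.17 on the wild type arrays and 3.96, 3.98 and 4.27 on the mutant arrays, and only 2.13% of all probe sets had a lower mean signal. The difference was 0.027 (95% interval -0.22 to 0.27). Eip93F read 5.69, 5.89 and 5.74 on the wild type arrays and 5.77, 5.98 and 5.61 on the mutant arrays, a difference of 0.010 (95% interval -0.24 to 0.26). Replicate 2 was the highest array of each group for Eip93F. Both probe sets were too dim for the filter that leaves out the lowest 40% of mean signals, as were usp, Hr39, br 144385_at and Hr3 143123_at, so 6 of the 12 passed it. No table holds a detection call, so neither gene can be called absent.

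The spread between replicates set Eip78C and Hr39 apart from most of the transcriptome. The SD within groups was 0.46 for Eip78C and 0.37 for Hr39, against a median of 0.11 over all probe sets. It exceeded that of 98.9% and 98.1% of all probe sets, and of 99.2% and 99.1% of those in the same 10th of mean signal. For br 141430_at the SD was 0.25, above that of 93.8% of all probe sets and of 86.3% in its own 10th, close to the 85.1% of br 144385_at and the 85.2% of ftz-f1. At the other end, usp had an SD of 0.06, above that of 10.3% of probe sets in its 10th, while the EcR probe sets 154377_at (0.09) and 146672_at (0.12) exceeded 31.1% and 51.9% in theirs. A range of at least 1 on the log2 scale over the 6 arrays was seen in 2 of 12 probe sets, and in 1.88% of all.

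**Figure D3:**
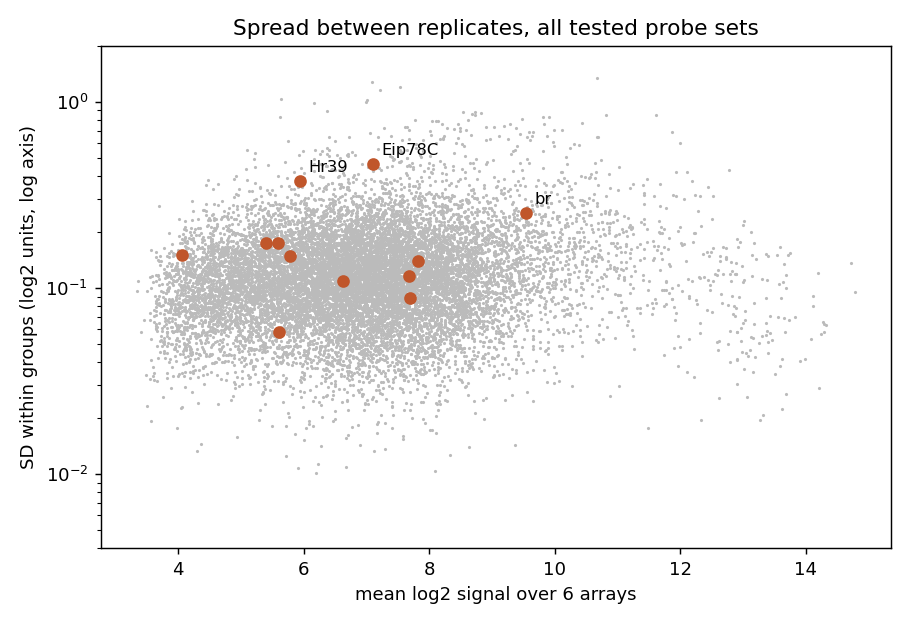
SD within groups (vertical log axis, log2 units) against the mean log2 signal over 6 arrays (horizontal axis), for all 13966 tested probe sets (grey) and the 12 of the ecdysone cascade (orange). Eip78C (0.46) and Hr39 (0.37) lie at the upper edge of the cloud at their signal, br 141430_at (0.25) lies below that edge, and usp (0.06) lies low in the cloud.

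Pairs of the 12 probe sets were compared from array to array. Among the 66 pairs of probe sets the median Pearson r over the 6 arrays was 0.18, given as a description. An r of at least 0.8 was seen in 6 pairs. Eip93F and Hr3 146927_at had r = 0.88, as had Eip78C and Hr39, and Eip78C and Hr3 143123_at had 0.84. The other pairs were br 143087_at with Hr3 143123_at, br 144385_at with ftz-f1 and usp with Eip93F, each at 0.83. These 6 points are 3 arrays of each of 2 groups, and they share the normalization of the arrays. Every one of the 6 pairs holds at least 1 probe set too dim for the filter. The share of such pairs over all probe sets was not computed. After the group means were taken out, r in these 6 pairs, in the same order, was 0.92, 0.91, 0.83, 0.82, 0.92 and 0.83. With the group means out, r was also at least 0.8 for br 141430_at with Eip78C (0.84) and with Hr39 (0.82). Before that step these pairs had 0.57 and 0.71. The lowest r before that step was -0.98, between EcR 146672_at and the dim probe set of ftz-f1. Of the 6 arrays, mle/mle replicate 2 gave the highest value in 7 of the 12 probe sets, where it did so in 23.5% of all. Wild type replicate 2 gave the lowest in 3 of 12, close to its 23.4% of all, and wild type replicate 1 in 4 of 12.

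Genes outside the cascade were ranked by their likeness to the profile of the brightest br probe set. Of 6895 genes past the dim filter, 120 had an r of at least 0.9 with that profile over the 6 arrays. How many genes would reach this for another profile was not computed. The 5 most alike were DCP2 (r = 0.99), which encodes the mRNA decapping enzyme, Prosbeta7 (0.99), a proteasome subunit gene, CCT2 (0.99), a chaperonin subunit gene, CG13319 (0.99) and emc (0.98), which encodes an inhibitor of basic helix-loop-helix factors. None of the 5 passed the test between groups, and their differences lay between -0.12 and -0.05. The emc probe set, the widest ranging of the 5, read 10.66, 10.22 and 10.72 on the wild type arrays and 10.24, 10.58 and 10.41 on the mutant arrays. As in br, wild type replicate 2 was the lowest array and mle/mle replicate 2 the highest mutant array. The 5 genes were chosen for their likeness to br over these same arrays, so this shared order follows from the choice.

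Other parts of the pathway were read from gene lists. Of 14 other nuclear receptor genes none passed in either direction, and 0 had an unadjusted p under 0.05. Their median difference was 0.03, with 9 of 14 above 0, where 53.7% of all probe sets were above 0. This direction depended on the setting, since the median was -0.022 with 5 above 0 in the PLIER table and -0.0024 with 7 above 0 without replicate 2 of both groups. The smallest p belonged to dsf (-0.11), Hnf4 (0.18) and knrl (0.08), all with an adjusted p of 0.9997 by limma. Hr4, an X-linked gene, encodes a repressor of early genes and is induced by ecdysone. It read 6.06, 5.90 and 6.74 on the wild type arrays and 6.01, 6.47 and 6.66 on the mutant arrays. Like Hr39 it was lowest in wild type replicate 2 and highest in wild type replicate 3.

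Cofactors of the receptor and the ecdysone importer were measured for 11 of 13 genes, and none passed (0 at an unadjusted p under 0.05). The median difference was 0.05, but it was -0.050 with 3 of 11 above 0 in the PLIER table and -0.023 with 4 of 11 without replicate 2 of both groups. The smallest p belonged to rig (-0.11), a cofactor of the receptor, Oatp74D (0.17), which encodes the importer that brings ecdysone into cells, and the chaperone gene Hsc70-4 (0.12). The genes of hormone synthesis and release were measured for 12 of 13, with a median of 0.05 and no call (1 higher with array weights). At an unadjusted p under 0.05 there was 1 of the 12, against 4.32% of all probe sets. This was shd, the P450 gene that converts ecdysone to its active form. It read 6.29, 6.36 and 6.45 on the wild type arrays and 6.59, 6.51 and 6.63 on the mutant arrays. Its groups did not overlap, and its difference of 0.21 had an adjusted p of 0.93 by limma. Groups without overlap were seen in 2 of the 12 genes and in 8.36% of all probe sets. ETH (0.10) and phtm (-0.08), an X-linked P450 gene of the prothoracic gland, had the next smallest p.

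Of 22 other ecdysone-induced genes, 16 were measured, and none passed. Their median difference was 0.09 with 12 of 16 above 0, where 53.7% of all probe sets were above 0. By unadjusted p under 0.05 there were 1 above 0 and 2 below, where 4.32% of all probe sets had such a p in either direction. The insulin-binding protein gene ImpL2 read 9.73, 9.75 and 9.89 on the wild type arrays and 9.41, 9.69 and 9.43 on the mutant arrays, a difference of -0.28 (SE 0.10, adjusted p = 0.87 by limma). Cyp18a1, the X-linked P450 gene that breaks ecdysone down, read 7.02, 7.05 and 7.16 on the wild type arrays and 6.81, 6.87 and 6.91 on the mutant arrays. Its difference was -0.21 (SE 0.07, adjusted p = 0.88 by limma). For both genes every mutant value lay below every wild type value. Of the 16 genes 3 had groups without overlap, where 8.36% of all probe sets did. The other of these, MsrA, was higher in mle/mle by 0.14 (adjusted p = 0.9997 by limma). Fbp1, a receptor gene of the fat body that ecdysone induces, differed by 0.27 (adjusted p = 0.9997 by limma). In the fit without the arrays numbered 2, which called 3.24% of all probe sets, 2 of the 16 passed and were lower, and the median was -0.09. With array weights, where 11.2% of all passed, 1 of the 16 was called higher and 2 lower.

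**Figure D4:**
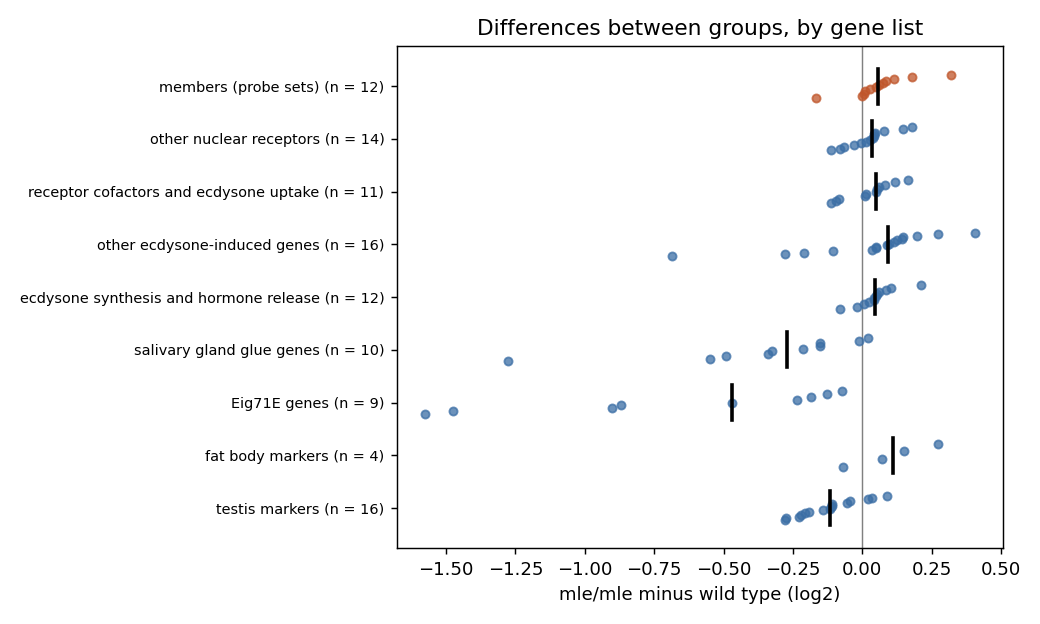
Difference in log2 signal between mle/mle and wild type (horizontal axis) for the 12 probe sets of the cascade (orange) and for the genes of each list (blue, 1 point for each gene), with the median of each list as a black bar. The cascade lies close to 0 (median 0.06), while the glue genes (median -0.27) and the Eig71E genes (median -0.47) reach further to the left.

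Downstream targets of the cascade in the salivary gland were lower in mean, though none passed the test. The median difference was -0.27 over 10 glue genes, with 9 below 0, and -0.47 over 9 Eig71E genes, late genes of the gland, with all 9 below 0. The median over all tested probe sets was 0.0066, with 6471 of 13966 below 0. Of the 9 Eig71E genes only 4 passed the dim filter, against 9 of the 10 glue genes. Without replicate 2 of both groups 2 glue genes and 1 Eig71E gene were above 0. At an unadjusted p under 0.05, 5 glue genes and 1 Eig71E gene were lower, where 1.35% of all probe sets were lower at that p. Among glue genes the smallest p belonged to Sgs5bis (-1.28), the X-linked Pig1 (-0.55) and Sgs8 (-0.49), with adjusted p = 0.13, 0.13 and 0.32 by limma. Among the late genes it belonged to Eig71Ee (-0.47), Eig71Eg (-1.47) and Eig71Ea (-1.58). With the replicate number as a block 1 Eig71E gene passed and was lower, where 0.043% of all probe sets passed in either direction. Without replicate 2 of both groups 5 glue genes and 5 Eig71E genes were called lower, where 3.24% of all passed in either direction. With array weights 7 glue genes and 4 Eig71E genes were called lower, where 11.2% of all passed in either direction.

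These lists also moved between replicates. On each array, the median of the Eig71E genes relative to their own means was 0.02, 0.70 and -0.13 on the wild type arrays and -0.35, 0.15 and -0.43 on the mutant arrays, highest in replicate 2 of each group. That of the glue genes was 0.18, 0.18 and 0.20 on the wild type arrays and -0.26, 0.0032 and -0.18 on the mutant arrays. Fat body markers, of which 4 of 6 were measured, lay between -0.17 and 0.04 in wild type and between -0.07 and 0.10 in mle/mle. The 16 testis markers lay between -0.23 and 0.20 in wild type and between -0.25 and 0.15 in mle/mle, lowest in replicate 2 of each group, and 0 genes of either list passed. The part of these tissues in the values of br, Eip78C and Hr39 was not tested.

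The genes that follow were chosen after their values were seen, as ones in which an array numbered 2 was extreme, and they do not stand for the whole cascade. Wild type replicate 2 had the lowest value of br 141430_at, Eip78C, Hr39, Hr4, Eip63E, Dronc and Ddc. Ddc, an enzyme gene of cuticle hardening, read 10.41, 8.80 and 10.53 on the wild type arrays and 10.07, 10.57 and 10.32 on the mutant arrays. The same array had the highest value of ImpL1, at 7.67 where the other 5 arrays lay between 5.03 and 5.33, and of Eig71Ea, at 8.70 where the others lay between 5.33 and 8.21. In mle/mle replicate 2, by contrast, Eip78C, Ddc and the ecdysone-inducible genes ImpE2 and ImpE3 had their highest values. ImpE2 read 10.24, 10.01 and 10.25 on the wild type arrays and 9.82, 10.96 and 9.87 on the mutant arrays. Eig71Ea was high on both arrays numbered 2, and ImpL1 was high on the wild type one alone of these 6 arrays.

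**Figure D5:**
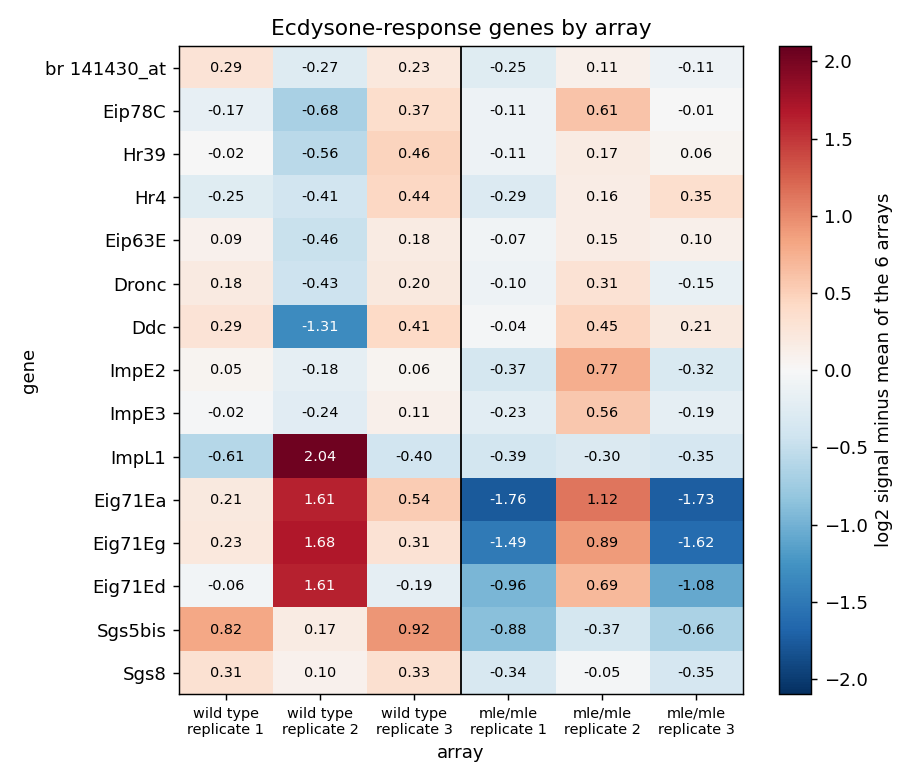
Log2 signal minus the mean of the 6 arrays (colour and printed value) for genes of the ecdysone response (rows) on each array (columns, wild type left of the line). Wild type replicate 2 is low for Eip78C (-0.68), Hr39 (-0.56) and Ddc (-1.31) and high for ImpL1 (2.04) and Eig71Ea (1.61), and mle/mle replicate 2 is high for Eip78C (0.61), ImpE2 (0.77) and Eig71Ea (1.12).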

How the data were processed

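The authors deposited log2 signals per probe set in a value table. RMA made these values, per the submitters' notes on processing, with version and settings not given in the sources used here. Array medians lay between 6.89 and 6.92. A second table holds log2 signals that the authors made with PLIER, offset by 16 per the file headers. From its columns the group of an array can be read but not its replicate number, and they carry 2 array codes, 1 on 4 arrays and 1 on 2, each split evenly between the groups. No sequences or coordinates are given, since no sequence table was at hand and the arrays name no build.

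With 44 array controls set aside, 13966 probe sets were tested. By the platform annotation, 12442 had 1 gene symbol, 327 had several and 1197 had none. RefSeq (Release 6 plus ISO1 MT) supplied current symbols, for 12393 by Entrez ID and for 4 by symbol. Every probe set of the cascade genes is reported, and for other genes the one with the highest mean signal.

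The test was limma 3.58.1 (lmFit and eBayes, R 4.3.3), two-sided, adjusted by Benjamini-Hochberg across the 13966 probe sets, and a probe set passed at an adjusted p under 0.05. Scripts were tested on simulated data. Python 3.11.15 and matplotlib 3.10.9 drew the figures. Members, gene lists, tests and alternatives were chosen with earlier results of these data known. Named were all members, any gene of a list that passed, and the 5 genes most like br. The 3 genes with the smallest p were named for each list except the fat body and testis markers. Other genes were named outside this rule, among them Lsp2, Sgs3, Hr4, MsrA and those chosen for an extreme array numbered 2. Eip74EF and Eip75B were meant to join br in that profile and were not analysed. The lists were other nuclear receptors, receptor cofactors and uptake, hormone synthesis and release, other ecdysone-induced genes (Hr4 and Fbp1 stand in 2 lists), glue genes, Eig71E genes, and fat body and testis markers.

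Replicate numbers 1 to 3 come from the titles. Same-numbered arrays deviated together from their group means (correlations 0.17, 0.28 and 0.52), although the labels do not say what a number shares. Differences within same-numbered pairs are given as a description. The main test, its intervals and the permutation test take no account of the numbers. A fit with the replicate block was an alternative, as were the PLIER table, its array codes, quantile normalization, median centring, the dim filter, another variance model, array weights, means over probe sets, other thresholds and leaving out arrays. The number of arrays limits the precision.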

Additional observations from a re-analysis of the deposited data

How the results depend on the processing

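No probe set of the cascade passed with the replicate block, with the PLIER table (whole, with the array code as a block, or for the 4 arrays of 1 code), after quantile normalization or centring, with the dim filter, the other variance model or means over probe sets, at thresholds of 0.01 and 0.1, or without any single array. The replicate block cannot move a difference (Eip78C 0.32), since each block holds 1 array of each group. It changed no call among the 12 probe sets. With array weights and without replicate 2 of both groups, 1 passed, br 141430_at (-0.46 and -0.44). The median of the 12 probe sets was -0.018 without replicate 2 of both groups and ran from -0.0084 to 0.096 when 1 array was left out.

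The causes of the sign changes that follow were not tested; most are of differences close to 0. In the PLIER table, with or without the code as a block, EcR 146672_at differed by -0.12, Eip93F by -0.15, Hr3 143123_at by -0.022 and Hr39 by -0.0044. Over its 4 arrays of 1 code EcR 146672_at differed by -0.16, br 141430_at by 0.0040 and ftz-f1 by -0.033. After quantile normalization EcR 146672_at was at -0.0055 and usp at -0.0015, and usp at -0.0014 after centring. Array weights gave -0.060 for EcR 146672_at, -0.00079 for EcR 154377_at, -0.017 for usp and -0.052 for Hr39. Averaged over its probe sets, br was at 0.021. Without replicate 2 of both groups the differences were -0.042 for EcR 146672_at, -0.0053 for usp, -0.0079 for br 143087_at, -0.16 for Eip78C, -0.028 for Eip93F, -0.067 for Hr3 143123_at and -0.25 for Hr39. Leaving out 1 array gave ranges from -0.040 to 0.077 for EcR 146672_at, -0.035 to 0.030 for usp, -0.032 to 0.11 for br 143087_at, -0.086 to 0.097 for Eip93F, -0.035 to 0.16 for Hr3 143123_at, -0.18 to 0.33 for Hr39 and -0.073 to 0.087 for ftz-f1. The ranges of EcR 154377_at, br 141430_at, br 144385_at, Eip78C and Hr3 146927_at kept their sign, and Eip78C ran from 0.062 to 0.59. Of the 12 probe sets 6 lay under the dim filter, where RMA can compress differences, which was not tested here.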
